A study of Homo sapiens with 12 samples.

Results

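CIAO2A, a carrier protein of the last step of cytosolic iron-sulfur cluster assembly, was read here together with its assembly partners CIAO2B, CIAO1 and MMS19, with the cluster synthesis proteins NFS1 and ISCU, and with the iron control genes ACO1, IREB2, TFRC and FTL. The genes were chosen by name, and a gene counted as measured where a transcript cluster (a set of probes summarised into 1 value per array) carried its symbol and no other. Of the 10 named genes, 9 had such a cluster, out of 17958 genes on the array. Each of the 9 had 1 cluster, and the probe annotation used here names no cluster for IREB2, alone or among several symbols, so IREB2 has no array value here. CIAO2A was put at the head of the set with its siRNA values known, so its change with ERβ2 siRNA is given below as a description, with no test. The other members and the gene lists below were also chosen with earlier results of these data known, a limit on all their counts.

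The cells were BT549, an established triple-negative breast cancer line, and the question of the study was how ERβ2, an isoform of estrogen receptor β (gene ESR2), alters their gene expression. The 4 groups had 3 arrays each, from biological replicates. Cells that received control siRNA or ERβ2 siRNA, both delivered with INTERFERin, were sampled at 48 h. Cells that received the empty vector pcDNA3 (EV), or the same vector carrying flag-tagged ERβ2 cDNA (ERβ2 plasmid), both delivered with a Lipofectamine reagent, were sampled at 24 h. The methods name no selection for cells that took up the siRNA or the plasmid, and they do not state which siRNA set against ERβ2 went onto the arrays. All values are log2 values from the RMA method, so a difference of 1 is a doubling of signal, and levels of different genes cannot be set against each other, since probes differ.

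Iron-sulfur clusters are made in mitochondria, where the desulfurase NFS1 supplies sulfur and ISCU is the scaffold on which the cluster is built. The cytosolic targeting machinery then passes clusters to their final proteins. CIAO1 with CIAO2B and MMS19 serves DNA polymerases, helicases and other nuclear proteins, whereas CIAO2A with CIAO1 serves ACO1 and is also known to bind and stabilise IREB2. ACO1 with its cluster is the cytosolic aconitase, and without it ACO1 is iron regulatory protein 1, which like IREB2 binds hairpins called iron-responsive elements (IREs). Binding at the 5′ end of FTL mRNA, which encodes the ferritin light chain, blocks its translation, and binding at the 3′ end of TFRC mRNA, which encodes the transferrin receptor, protects that mRNA from decay. The arrays read mRNA alone, neither protein nor iron, and in bulk RNA a lower level in every cell cannot be told apart from loss in some cells.

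The loop of the 5′ IRE is shown because FTL is the member regulated through it, next to the loop of ALAS2, the erythroid first enzyme of heme synthesis, which is known to be regulated in the same way. The stretches come from RefSeq (GRCh38.p14) and are written 5′ to 3′ on the transcript strand, with the loop CAGTGN in capitals.
FTL, chr19:48965329-48965358, plus strand: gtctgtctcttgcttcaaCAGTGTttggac
ALAS2, chrX:55030940-55030969, minus strand: ttcgttcgtcctCAGTGCagggcaacaggt
The loop covers bases 39 to 44 of the FTL transcript and bases 21 to 26 of the ALAS2 transcript. The same 6 letters stood in the first 50 bases of 6.36% of 35116 RefSeq transcript starts, so the letters alone do not mark an IRE. Of the 4 transcripts known for a 5′ IRE that had a RefSeq window, these 2 held the letters in that stretch, and EPAS1 and SLC40A1 did not, which says only that the letters are not in those 50 bases.

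The targeted gene gave no check of the siRNA labels. The ESR2 cluster read 4.03, 3.88 and 4.05 with control siRNA and 4.12, 3.99 and 3.80 with ERβ2 siRNA (adjusted p = 0.913 from limma), and it does not separate ERβ2 from other isoforms. It read 4.08, 3.93 and 4.01 with EV and 4.35, 4.72 and 4.37 with the plasmid, or 0.47 higher (SE, the standard error, 0.10, adjusted p = 0.449). The array medians lay between 5.04 and 5.14, so CIAO2A and its partners were all read well above the middle of the arrays. The 5 mesenchymal markers of BT549 read between 8.80 and 12.32, and EPCAM, CDH1, ESR1, PGR and the 2 blood cell markers measured lay at 4.60 or below on every array. The epithelial keratins were higher, with KRT8 at 6.63 to 8.39, KRT18 at 9.05 to 11.15 and KRT19 at 4.45 to 6.09, and ERBB2 read 7.85 to 8.27.

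CIAO2A was the member that stood apart with ERβ2 siRNA. Its log2 value (cluster 7989611, chromosome 15) was 8.30, 8.23 and 8.14 with control siRNA and 6.90, 6.75 and 6.85 with ERβ2 siRNA. It was 8.33, 8.32 and 8.32 with EV and 8.38, 8.44 and 8.39 with the ERβ2 plasmid. The 3 ERβ2 siRNA arrays thus lay together below the 9 others, which spanned 8.14 to 8.44. The log2 change with ERβ2 siRNA was −1.39 (SE 0.07, with a 95% confidence interval, CI, from −1.54 to −1.24), a signal 2.62-fold lower, and 9 of the 17958 genes had a lower log2 change. RefSeq lists 2 named copies of CIAO2A, whose part in the signal was not tested.

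In order of level, ERβ2 siRNA was lowest, at 6.83 ± 0.08 (mean ± SD, n = 3), followed by control siRNA at 8.22 ± 0.08, EV at 8.32 ± 0.01 and the ERβ2 plasmid at 8.40 ± 0.03. The neighbours at the top of this order did not differ beyond the threshold of an adjusted p of 0.1. The plasmid changed CIAO2A by 0.08 on the log2 scale (SE 0.05, 95% CI −0.04 to 0.20, adjusted p = 0.81 from limma), although each plasmid array lay above each EV array. EV and control siRNA differed by 0.10 (95% CI −0.04 to 0.24, adjusted p = 0.253).

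**Figure D1:**
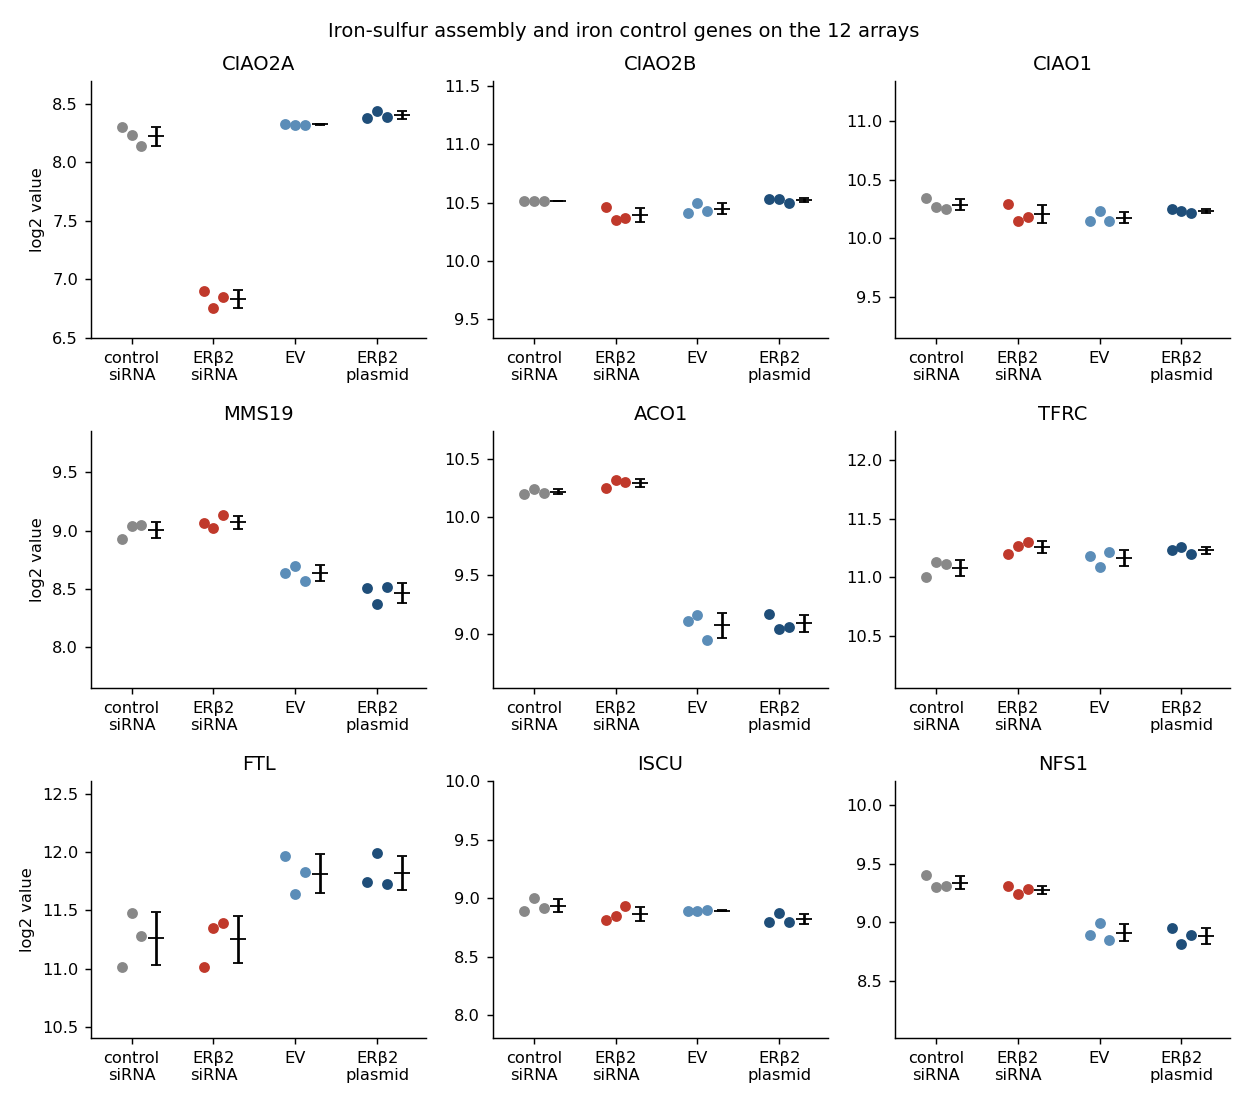
Log2 values of the 9 measured genes (vertical axes, each spanning 2.2 log2 units) in the 4 groups; each point is 1 array and the bar beside it is the mean ± SD of 3 arrays. CIAO2A lies between 6.75 and 6.90 on the ERβ2 siRNA arrays and between 8.14 and 8.44 on all others, while ACO1 lies near 9 on both plasmid-transfected groups and above 10 on both siRNA groups.

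The other 8 genes changed little with ERβ2 siRNA, and TFRC alone passed the test. Their log2 changes ran from −0.12 to 0.18 with a median of −0.03, which is also the median over all genes. With an adjusted p of at most 0.1 as the threshold, 1 of 8 rose and 0 fell, where 18.3% of all genes rose and 17.5% fell (3279 and 3151 genes, and 4035 and 1968 with each array centred on its median). The arrays of both groups did not overlap for 3 of the 8, against 42.4% of all genes. No member but CIAO2A reached the 1.5-fold change that the methods of the study ask for.

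The partners in the targeting complex stayed close to their control values. CIAO2B, the paralog of CIAO2A that works with MMS19, read 10.51 on each of the 3 control siRNA arrays and 10.46, 10.35 and 10.37 with ERβ2 siRNA. All 3 ERβ2 siRNA arrays were below the controls, yet the log2 change of −0.12 (SE 0.06, 95% CI −0.24 to 0.01) did not pass (adjusted p = 0.155 from limma). CIAO1, the WD40 protein shared by both complexes, read 10.34, 10.27 and 10.25 with control siRNA and 10.29, 10.15 and 10.18 with ERβ2 siRNA. Its groups overlapped, with a log2 change of −0.08 (95% CI −0.22 to 0.06, adjusted p = 0.367). MMS19, the adaptor that binds DNA repair and replication enzymes, read 8.93, 9.04 and 9.05 with control siRNA and 9.06, 9.02 and 9.13 with ERβ2 siRNA (log2 change 0.06, 95% CI −0.08 to 0.20, adjusted p = 0.477). For these 3 partners the intervals exclude a change as large as that of CIAO2A.

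Set against its partners within each array, CIAO2A was lower with ERβ2 siRNA by similar amounts whichever gene it was read against. The log2 change of CIAO2A minus that of the other gene ran from −1.27 (CIAO2B, SE 0.05) to −1.57 (TFRC, SE 0.10). With the plasmid the same difference ran from 0.01 (CIAO2B and TFRC) to 0.25 (MMS19, SE 0.08). These differences contain the change of CIAO2A itself and are descriptions.

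Of the iron control genes, TFRC rose with ERβ2 siRNA. It read 11.00, 11.13 and 11.11 with control siRNA and 11.20, 11.27 and 11.30 with ERβ2 siRNA. Every ERβ2 siRNA array was above every control array, and the log2 change was 0.18 (SE 0.06, adjusted p = 0.0628 from limma), or 1.13-fold. The call did not hold without control siRNA replicate 1 (adjusted p = 0.135), control siRNA replicate 3 (0.102), ERβ2 siRNA replicate 2 (0.136) or ERβ2 siRNA replicate 3 (0.186), nor when all transcript clusters entered the fit (0.119).

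ACO1 mRNA, which encodes the protein that CIAO2A serves, read 10.20, 10.24 and 10.21 with control siRNA and 10.25, 10.32 and 10.30 with ERβ2 siRNA. The groups did not overlap, but the log2 change of 0.07 (95% CI −0.05 to 0.19) did not pass (adjusted p = 0.339 from limma). FTL read 11.02, 11.48 and 11.28 with control siRNA and 11.02, 11.35 and 11.39 with ERβ2 siRNA, a change of −0.01 with the widest interval of the set, −0.31 to 0.30 (adjusted p = 0.977). FTL thus varied more between replicates of a group than any other member, and RefSeq lists 20 named copies of it, whose part in the signal was not tested.

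The mitochondrial genes did not pass either. ISCU read 8.89, 9.0 and 8.92 with control siRNA and 8.81, 8.85 and 8.93 with ERβ2 siRNA (log2 change −0.07, adjusted p = 0.401 from limma). NFS1 read 9.40, 9.30 and 9.31 with control siRNA and 9.31, 9.24 and 9.28 with ERβ2 siRNA (log2 change −0.06, adjusted p = 0.467). The groups overlapped for both.

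With the ERβ2 plasmid, 0 of the 9 genes passed, where 0.0111% of all genes (2 of 17958) did so. At an unadjusted p under 0.05, limma gave 1 member, MMS19, and 1260 of all genes. The arrays of both groups did not overlap for 3 of the 9, against 12% of all genes. MMS19 read 8.64, 8.70 and 8.57 with EV and 8.51, 8.37 and 8.52 with the plasmid, so that each plasmid array lay below each EV array (log2 change −0.17, SE 0.06, adjusted p = 0.675). ISCU read 8.89, 8.89 and 8.90 with EV and 8.80, 8.87 and 8.80 with the plasmid (log2 change −0.07, adjusted p = 0.84). The log2 changes of all 9 lay between −0.17 and 0.08.

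**Figure D2:**
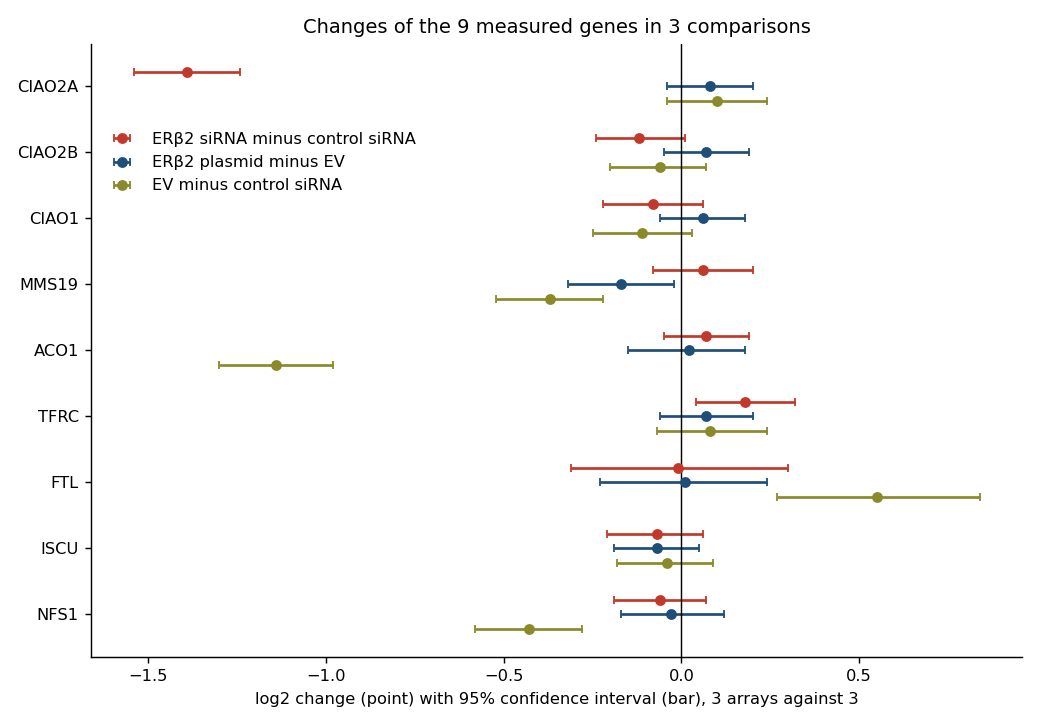
Log2 change (horizontal axis, point) with its 95% CI (bar) for the 9 measured genes in 3 comparisons of 3 arrays against 3. With ERβ2 siRNA the interval of CIAO2A runs from −1.54 to −1.24 while the other 8 changes lie between −0.12 and 0.18, and ACO1, NFS1, MMS19 and FTL are off 0 in EV minus control siRNA.

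The effects of the siRNA and of the plasmid were set against each other over all 12 arrays, as the siRNA change minus the plasmid change. Both effects were taken at different times (48 h and 24 h) and with different reagents, which cannot be told apart in this difference. Of the 8 genes other than CIAO2A, 1 passed as higher and 1 as lower, where 15% of all genes passed as higher and 11.3% as lower. CIAO2B changed by −0.12 with ERβ2 siRNA (adjusted p = 0.155) and by 0.07 with the plasmid (adjusted p = 0.833), neither of which passed, and these changes differed by −0.19 (SE 0.07, adjusted p = 0.072 from limma). For MMS19, whose changes of 0.06 and −0.17 did not pass either, the difference was 0.23 (SE 0.09, adjusted p = 0.0788). Both calls were lost, among other settings, when all clusters entered the fit (adjusted p = 0.107 for CIAO2B and 0.133 for MMS19), and without ERβ2 siRNA replicate 3, EV replicate 1 or ERβ2 plasmid replicate 2. That of CIAO2B was also lost without control siRNA replicate 2 or 3, EV replicate 3, ERβ2 siRNA replicate 2 or ERβ2 plasmid replicate 1 or 3 (adjusted p of 0.108 to 0.146 over the arrays left out), and that of MMS19 without EV replicate 2 or replicate 1 of either siRNA group (0.117 to 0.171). For CIAO2A the same difference was −1.47 (SE 0.08), given as a description.

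Of the comparisons made, ACO1, NFS1, MMS19 and FTL had their largest differences between the control groups themselves. EV and control siRNA differ in RNA sampling time (24 h against 48 h), in transfection reagent and in the nucleic acid delivered, and these cannot be told apart. The comparison also shares the control siRNA arrays with the siRNA comparison. Of the 9 genes, 1 was higher and 3 were lower with EV, where 19.2% of all genes were higher and 22.4% lower. The arrays did not overlap for 7 of the 9, against 47.2% of all genes.

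ACO1 read 9.11, 9.16 and 8.95 with EV and 9.17, 9.04 and 9.06 with the ERβ2 plasmid, against 10.20 to 10.24 with control siRNA. All 6 plasmid-transfected arrays were more than 1 log2 unit below all 6 siRNA arrays. The log2 change of EV against control siRNA was −1.14 (SE 0.07, 95% CI −1.30 to −0.98, adjusted p = 8.7e-06 from limma), a 2.21-fold lower signal, and 15 genes had a lower log2 change. The plasmid against EV gave 0.02 (95% CI −0.15 to 0.18).

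NFS1 read 8.89, 8.99 and 8.85 with EV and 8.95, 8.81 and 8.89 with the plasmid, below the 9.30 to 9.40 of control siRNA (EV against control siRNA −0.43, SE 0.07, adjusted p = 0.00152 from limma). MMS19 was lower with EV by the same comparison (log2 change −0.37, SE 0.07, adjusted p = 0.00328), and its plasmid arrays were lower again. FTL went the other way. It read 11.97, 11.64 and 11.83 with EV and 11.74, 11.99 and 11.73 with the plasmid, 1.47-fold above control siRNA for EV (log2 change 0.55, SE 0.12, adjusted p = 0.0104).

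CIAO2B read 10.41, 10.50 and 10.43 with EV and 10.53, 10.53 and 10.50 with the plasmid. CIAO1 read 10.15, 10.23 and 10.15 with EV and 10.25, 10.23 and 10.22 with the plasmid. TFRC read 11.18, 11.09 and 11.22 with EV and 11.23, 11.26 and 11.20 with the plasmid. Together with CIAO2A and ISCU, these 3 genes did not pass in EV against control siRNA (adjusted p from 0.194 to 0.596 from limma).

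The wider pathway was read through 7 lists with 111 genes in all, of which 96 were measured and 87 were not among the genes above. With ERβ2 siRNA, 23 of the 87 rose, 13 fell and 51 did not pass. The share that passed, 41.4%, stood against 35.8% of all genes, and the median log2 change was 0.01 against −0.03. The balance of rises and falls moved with the scaling, from 28 and 9 with each array centred on its median to 23 and 20 after quantile normalization again. With the plasmid 0 of the 87 passed in limma. In EV against control siRNA 27 were higher, 18 were lower and 42 did not pass, so that 51.7% passed where 41.6% of all genes did.

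The other assembly genes gave no common direction with ERβ2 siRNA. Of the 7 further genes of cytosolic assembly and targeting, 0 rose and 2 fell, with a median of −0.10, where 18.3% of all genes rose and 17.5% fell. The 2 were named after their values were seen. They were CIAPIN1 (log2 change −0.20, adjusted p = 0.032 from limma), an electron donor in the early cytosolic steps, and CIAO3 (−0.19, adjusted p = 0.0787), which links the early machinery to the targeting complex. The count was 0 with each array centred on its median and 1 under several other settings, among them leaving out control siRNA replicate 1 or 3 or ERβ2 siRNA replicate 2 or 3.

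Of the 14 further genes of mitochondrial assembly, 2 rose and 1 fell, where 18.3% of all genes rose and 17.5% fell (2 and 4 list genes after quantile normalization again). Read by its cluster with the highest mean, the gene that fell had the second largest fall among all measured list genes, after CIAO2A. A second cluster of that gene, given below, changed by −0.63, less than BRIP1 (−0.76) and KIF4A (−0.66) did. GLRX5, the glutaredoxin that hands newly made clusters on in mitochondria, read 9.14, 9.81 and 9.76 with control siRNA and 8.14, 8.65 and 8.88 with ERβ2 siRNA (log2 change −1.01, SE 0.22, adjusted p = 0.00932 from limma). A second GLRX5 cluster, lower in signal, changed by −0.63 (adjusted p = 9.98e-04), so both clusters were lower, and the confidence intervals of their changes overlapped. The call of the first cluster was lost under the per-gene test of the methods after Benjamini-Hochberg adjustment (adjusted p = 0.104). RefSeq lists 3 named copies of GLRX5, whose part in the signal was not tested. The first cluster was also lower with EV than with control siRNA (−0.74, adjusted p = 0.0957), with EV replicate 2 at 8.07 and the other EV arrays at 9.19 and 9.23. In the second cluster all EV arrays lay below the control arrays. It read 8.25, 8.34 and 8.33 with control siRNA, 7.69, 7.68 and 7.65 with ERβ2 siRNA and 7.80, 7.77 and 7.72 with EV.

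Among iron regulatory proteins and IRE transcripts, 2 of the 7 further genes rose and 2 fell with ERβ2 siRNA, against 18.3% and 17.5% of all genes. The rises were EPAS1 and SLC11A2, an iron importer (0.21, adjusted p = 0.0239 from limma), and the falls were CDC14A, a phosphatase (−0.30, adjusted p = 0.0297), and ALAS2 (−0.21, adjusted p = 0.0913), all but EPAS1 named after their values were seen. The falls were 1 in place of 2 without control siRNA replicate 2 or 3, without replicate 1 or 3 of ERβ2 siRNA, and under each rescaling, the dim filter, the intensity trend, 1 fit over 12 arrays and all clusters. EPAS1, the HIF-2α gene, whose mRNA carries a 5′ IRE, rose from 10.84, 10.88 and 10.92 to 11.46, 11.56 and 11.50 (log2 change 0.63, SE 0.06, adjusted p = 1.1e-04 from limma). The plasmid arrays read 11.02, 11.06 and 11.05 against 10.95, 10.97 and 10.99 with EV (log2 change 0.07, adjusted p = 0.818). FTL, in the same list, changed by −0.01.

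**Figure D3:**
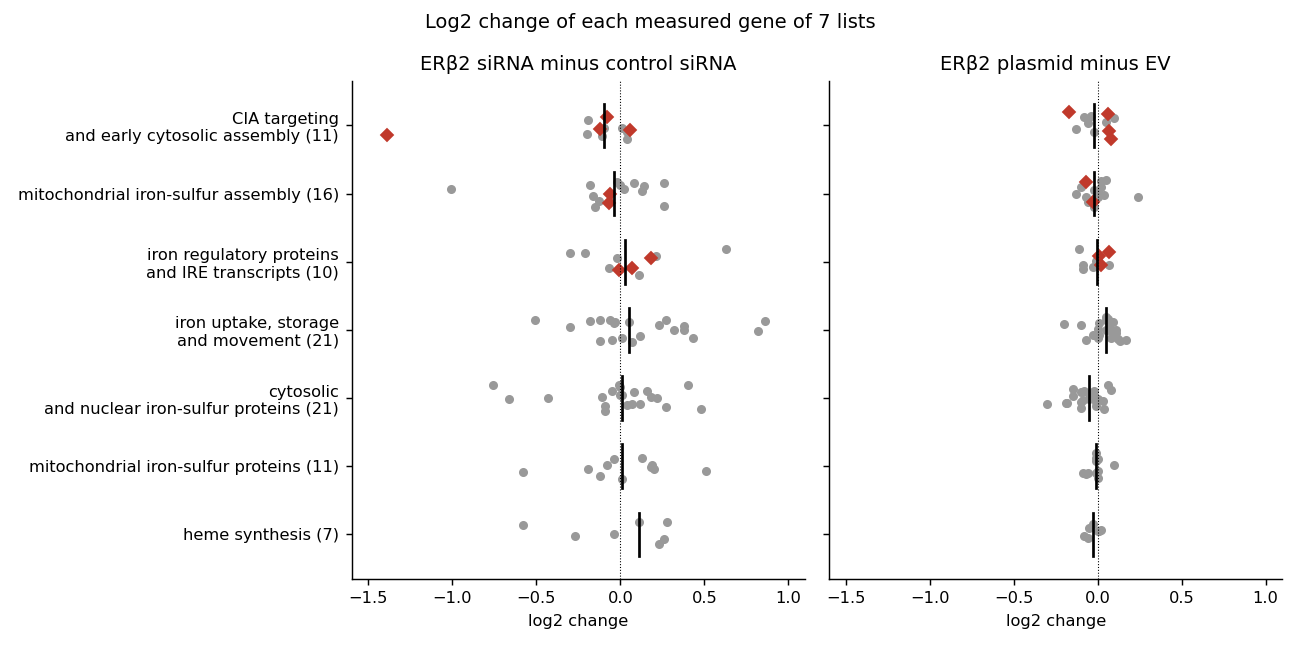
Log2 change (horizontal axis) of each measured gene in 7 lists (rows, number measured in brackets) with ERβ2 siRNA (left) and with the ERβ2 plasmid (right); diamonds are the 9 genes of the set, circles the other genes, and vertical bars the list medians. With ERβ2 siRNA the medians lie between −0.10 and 0.11, and CIAO2A and the highest-mean cluster of GLRX5 stand apart on the low side. With the plasmid all changes lie between −0.30 and 0.24.

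In the list of iron uptake, storage and movement, 8 of 21 genes rose with ERβ2 siRNA and 3 fell, where 18.3% of all genes rose and 17.5% fell. SLC39A8, a zinc transporter that also carries manganese and iron, rose from 9.62, 9.46 and 9.55 to 10.42, 10.39 and 10.39 (log2 change 0.86, SE 0.06, adjusted p = 3.5e-05 from limma). BMP6, the ligand that signals iron stores to hepcidin in liver, rose from 8.33, 7.95 and 8.01 to 8.90, 8.94 and 8.91 (log2 change 0.82, adjusted p = 4.4e-04). Both were also higher with EV than with control siRNA, by 0.78 and 0.79, a comparison that shares the control siRNA arrays. HFE, which partners the transferrin receptors in iron sensing, fell by 0.51 on the log2 scale (adjusted p = 0.00767) at a signal near the array medians. CP, the copper ferroxidase ceruloplasmin, read 3.33, 3.39 and 3.32 with control siRNA and 4.02, 3.39 and 3.92 with ERβ2 siRNA. CP was dim, its groups touched at 3.39, and its call (log2 change 0.43, adjusted p = 0.0577) was lost in 5 of the 6 fits that left out 1 array.

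Among the cytosolic and nuclear proteins that carry clusters, 4 of 21 rose and 3 fell, against 18.3% and 17.5% of all genes. The genes that fell were BRIP1, KIF4A and DNA2. BRIP1, a helicase of the Fanconi pathway, fell from 7.86, 7.89 and 7.89 to 7.29, 7.01 and 7.06 (log2 change −0.76, adjusted p = 2.2e-04 from limma). KIF4A, a chromosome kinesin, changed by −0.66 (adjusted p = 2.0e-04), and DNA2, a helicase and nuclease of replication, by −0.43 (adjusted p = 8.4e-04). XDH, the xanthine oxidoreductase of purine breakdown, rose from 5.23, 5.35 and 5.64 to 6.10, 5.70 and 5.87 (log2 change 0.48, adjusted p = 0.022), a call lost under the per-gene test of the methods after Benjamini-Hochberg adjustment (adjusted p = 0.136). ERCC2, a DNA repair helicase named after its values were seen, rose by 0.40 (adjusted p = 0.00114).

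KIF4A and DNA2 were also lower with EV than with control siRNA, by log2 changes of −0.57 and −0.35, and XDH was higher by 1.20, whereas BRIP1 read 7.88 ± 0.02 (n = 3) in both control groups. In the same list RSAD2, the radical SAM enzyme viperin of the antiviral response, was named after its values were seen. It read 4.03, 4.27 and 4.21 with control siRNA, 4.54, 4.04 and 4.41 with ERβ2 siRNA and 9.79, 9.88 and 9.87 with EV, a log2 change of 5.68 for EV (SE 0.08, adjusted p = 8.4e-10 from limma). With the plasmid it read 9.71, 9.61 and 9.69.

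Of the 11 mitochondrial proteins that carry clusters, 4 rose and 1 fell with ERβ2 siRNA, against 18.3% and 17.5% of all genes. The rises were 2 without ERβ2 siRNA replicate 1 and 1 without ERβ2 siRNA replicate 3. ETFDH, which passes electrons from fatty acid and amino acid oxidation to ubiquinone, rose from 8.0, 7.96 and 8.02 to 8.52, 8.45 and 8.54 (log2 change 0.51, adjusted p = 2.8e-04 from limma). FECH, ferrochelatase, the last enzyme of heme synthesis, fell from 7.92, 7.83 and 7.83 to 7.41, 7.17 and 7.27 (log2 change −0.58, adjusted p = 6.4e-04). In the heme synthesis list, which also holds FECH, 3 of 7 rose and 2 fell, beside the same shares of all genes, with a median of 0.11. FECH was lower with EV as well (−0.43 against control siRNA), and ETFDH was not higher there (−0.25).

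Genes with a profile near that of CIAO2A over the 12 arrays were sought among all genes. Likeness was measured as the root mean square difference of log2 values after each gene was centred on its own mean, a distance that includes the low siRNA values of CIAO2A itself. The nearest were MPDU1, needed for the use of mannose lipid donors in glycosylation (0.073), C1D, a cofactor of the nuclear exosome (0.083), KLHDC10 (0.125), CHMP5, an ESCRT-III subunit (0.128), and TPP2, a cytosolic peptidase (0.134). The median over all genes was 0.662, and the nearest of the other 8 members, FTL, was at 0.538.

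These 5 genes were chosen by their likeness to CIAO2A, so their low values with ERβ2 siRNA follow from the choice. MPDU1 read 10.10, 10.02 and 10.11 with control siRNA, 8.88, 8.68 and 8.76 with ERβ2 siRNA, 10.33, 10.13 and 10.30 with EV and 10.25, 10.28 and 10.25 with the plasmid. C1D read 8.70 to 8.76 with control siRNA and 7.19 to 7.21 with ERβ2 siRNA. C1D has 4 clusters and KLHDC10 has 3, and the 1 with the highest mean is given for each. KLHDC10, CHMP5 and TPP2 had siRNA log2 changes of −1.27, −1.10 and −1.42.

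**Figure D4:**
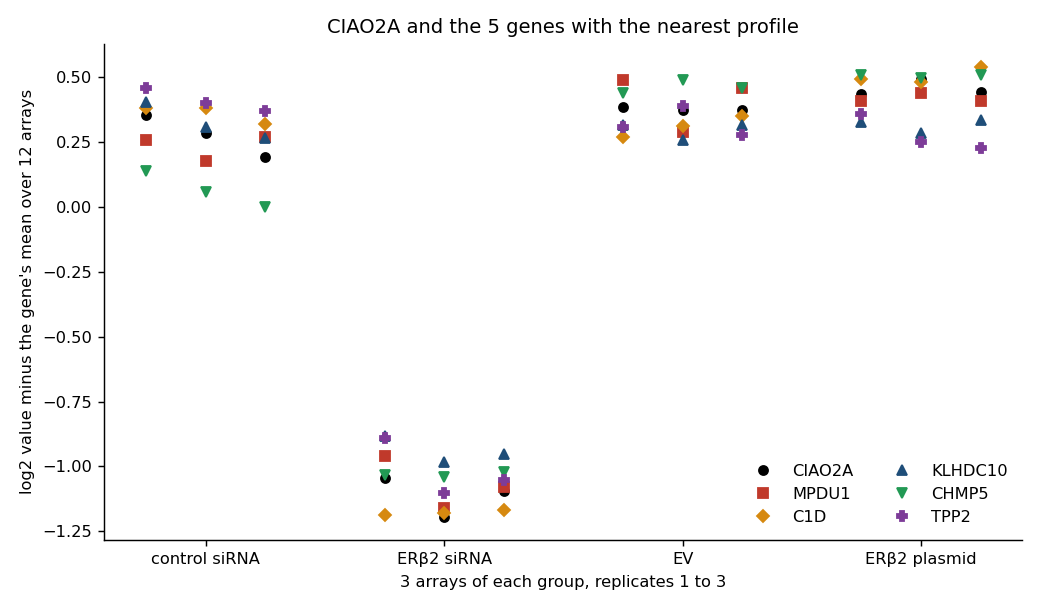
Log2 value minus the mean of the gene over 12 arrays (vertical axis) for CIAO2A and the 5 genes with the nearest profile, 3 arrays in each of 4 groups (horizontal axis); each marker is 1 array. The genes were selected for this likeness, and all 6 are below their mean on the 3 ERβ2 siRNA arrays and above it, or at it to 2 decimals, on the others.

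The starts of the 10 genes were searched for letters of the estrogen response element. RefSeq (GRCh38.p14) gave 12 windows of 300 bases for the 10 genes, each from 250 bases before to 50 bases after a transcript start. The full palindrome AGGTCANNNTGACCT was in 0 of the 12 windows and in 1 of 35116 windows of all genes. The half-site AGGTCA, on either strand, was in 1 of the 12, that of IREB2, and in 13.8% of all windows. The window of CIAO2A held neither, which says only that these letters are not in it.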

How the data were processed

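RNA of 3 biological replicates per group was read on Human Gene 1.1 ST arrays of Affymetrix. The authors made the deposited log2 values with the RMA method in Expression Console, with the software version not given in the sources that were used. Base 2 was assumed, since no base is named. Arrays have no sequencing depth, and precision is set by 3 arrays per group.

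The table holds 33297 transcript clusters, of which 19181 carry a single symbol. Where a gene had several, the one with the highest mean was taken, and 17958 genes entered the fits with no filter on low values. Groups were compared by lmFit and eBayes of limma 3.58.1 (R 4.3.3), with Benjamini-Hochberg adjustment over all genes and a threshold of an adjusted p of at most 0.1. The procedure was tested on simulated data. The members and lists were chosen with earlier results of these data known. The plan counted 10 members, and 9 were measured.

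Named genes were the members, ESR2, up to 4 genes per list that passed with ERβ2 siRNA at a log2 change of at least 0.32, list genes that passed with the plasmid, and the 5 genes nearest in profile to CIAO2A.

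The alternatives changed the rows (all clusters, or genes with a mean of at least 5), the scaling (cyclic loess, quantile normalization once more, median centring), the variance model (an intensity trend with a robust prior), the fit (1 over 12 arrays, a replicate block, the t-test of the methods with q-values or Benjamini-Hochberg adjustment) and the arrays (each left out). Sequences and gene names are from RefSeq for GRCh38.p14, and no probe coordinates are given.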

Additional observations from a re-analysis of the deposited data

Results flagged for a closer look

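The difference between the effects of ERβ2 siRNA and of the ERβ2 plasmid passed for 2 of the 8 genes other than CIAO2A, a share near the 26.4% of all genes. Sampling time and transfection reagent also differ between the siRNA and plasmid groups and cannot be told apart here. The siRNA change minus the plasmid change was −0.19 for CIAO2B (adjusted p = 0.072 from limma over 12 arrays) and 0.23 for MMS19 (adjusted p = 0.0788). Both calls depended on single arrays, and they were lost in 12 of 19 alternatives for CIAO2B and in 10 of 19 for MMS19. For CIAO2A every ERβ2 siRNA array lay below every control array and every plasmid array above every EV array. The plasmid step was small, at 0.08 on the log2 scale, and fell short of the threshold (limma, adjusted p = 0.81). Groups without overlap were common, at 42.4% of all genes for ERβ2 siRNA and 12% for the plasmid. The siRNA change of CIAO2A minus its plasmid change was −1.47 on the log2 scale, and this difference was not tested.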

How the results depend on the processing

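CIAO2A stayed lower with ERβ2 siRNA in all 16 alternatives (log2 change −1.44 to −1.34). In 0 of them did a member pass with the plasmid, where the count over all genes, 2, ranged from 0 to 44 (an intensity trend and a robust prior). Of the 8 other members, 1 passed with ERβ2 siRNA, and 2 did so with the filter on dim genes, quantile normalization again, the intensity trend, 1 fit over 12 arrays or the methods' t-test with Benjamini-Hochberg adjustment. The t-test with q-values gave 3, in a setting that passed 7993 of all genes in place of 6430. All clusters gave 0, and leaving out 1 array gave 0 to 1. The added calls were CIAO2B (lower) and, with q-values, ACO1 (higher). In EV against control siRNA 4 members passed, 5 with the intensity trend (CIAO1, adjusted p = 0.0871) and 7 with q-values (CIAO1, CIAO2A and CIAO2B added). Over all genes 7467 passed there, 7697 with the intensity trend and 10931 with q-values. In the difference of both effects 2 passed. That count was 1 under quantile normalization again, cyclic loess and median centring, 0 with all clusters, and 0 to 1 without 1 array. The cause of these shifts was not tested.

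Replicate numbers were not taken to pair samples, since the methods name no pairing. Same-numbered arrays correlated in their deviations from the group means at 0.223, 0.143 and 0.014 for the siRNA groups. The values were −0.137, −0.09 and 0.104 for the plasmid groups, and −0.239, −0.156 and 0.125 for EV with control siRNA. With the replicate block, 0 members passed in the difference of both effects (adjusted p = 0.113 for CIAO2B and 0.116 for MMS19), and no other member's call changed.

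In 25 instances a member changed sign, none of them passing before or after. FTL read 0.01 (cyclic loess), 0.05 (median centring) and −0.13 to 0.11 (without 1 array) with ERβ2 siRNA, and −0.01 (quantile, cyclic loess) and −0.08 to 0.09 (without 1 array) with the plasmid. In the difference it read 0.01 (cyclic loess), 0.02 (median centring) and −0.13 to 0.10 (without 1 array). Without 1 array ACO1 read −0.04 to 0.06 and NFS1 −0.06 to 0.01 with the plasmid. In the difference ISCU read 0.03 (median centring), and without 1 array ISCU read −0.04 to 0.03 and NFS1 −0.07 to 0.00. Each member has 1 cluster, so a value from another cluster of the same gene was not run. Without read depth, 3 arrays per group set the precision, and changes of about 0.1 on the log2 scale were within the confidence intervals.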
